A study of Homo sapiens with 6 samples.

Results

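The 46 genes described here encode the machinery that forms clathrin-coated pits at the plasma membrane and receives their cargo in early endosomes. They were chosen by symbol, from a list of clathrin subunits, AP-2 adaptor subunits, pit adaptors, membrane-curving proteins, scission and uncoating factors, endosomal Rab GTPases, sorting proteins, CBL ubiquitin ligases and caveolins. All 46 symbols were found among the 61487 genes of the count table, and all 46 passed the filter on low counts that kept 16591 genes. The cells were H2170, an established line of human lung squamous cell carcinoma, and polyadenylated RNA was sequenced from 2 libraries in each of 3 groups. Control cells expressed GFP alone, WT cells expressed ACK1 (WT) fused to GFP, and IDRmut cells expressed ACK1 (IDRmut) fused to GFP, so GFP was common to all groups. The labels do not spell out IDRmut. The letters IDR commonly stand for an intrinsically disordered region of a protein. Not given in the sources used here are the promoter of the constructs, how they entered the cells, and whether a group was 1 clone.

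Clathrin, built from heavy and light chains, forms a lattice around an inward-growing pit. The AP-2 complex and further adaptors link that lattice to lipids and cargo receptors, BAR-domain proteins bend the neck, dynamin severs it, and auxilin-type cofactors strip the coat from the vesicle. The vesicle then fuses with an early endosome carrying RAB5 and its tether EEA1, where cargo is recycled or, if ubiquitinated, sorted towards the lysosome. ACK1, the non-receptor tyrosine kinase encoded by TNK2, is known to bind the clathrin heavy chain and the sorting nexin SNX9 and to take part in turnover of the epidermal growth factor receptor. The comparisons ask how the transcripts of this machinery stood when ACK1 was raised, and whether they differed between the form called WT and the form called IDRmut.

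The libraries held between 19128111 and 33540998 counts, and the second WT library was the deepest. Levels are given as CPM, counts scaled to a common library size after TMM, with no correction for gene length. TNK2 was at 41.1 and 43.1 CPM in Control, at 3514 and 3613 in WT and at 1762 and 1455 in IDRmut, so the 2 ACK1 groups differed in ACK1 transcript as well as in the construct, and these cannot be told apart. No label says that the 2 libraries of a group came from separate cultures, so the spread behind each p-value may be technical. That spread exceeded counting error, most of all in IDRmut: the chi-square per gene between the 2 libraries was 3.65 there, 1.66 in Control and 1.55 in WT. Of 10 squamous markers, 8 passed the filter, while PKP1 and PERP did not, at 0.106 and 0.0254 CPM on average in Control. KRT14 led a summed level of 2620 to 2650 CPM in Control, 1280 to 1320 in WT and 1760 to 1890 in IDRmut. The sum followed KRT14, S100A2 and SOX2, which were lower in both ACK1 groups, while 2 of the 8 squamous markers tested were higher and 5 lower in WT, and 4 were higher and 3 lower in IDRmut, KRT6A by 3.38-fold and KRT5 by 2.10-fold among the higher. Of 4 general epithelial markers, EPCAM and CDH1 did not pass the filter, at no more than 0.16 and 0.068 CPM on average in any group. KRT8 (12, 28 and 72 CPM on average in Control, WT and IDRmut) and KRT18 (1.65, 10.7 and 7.09 CPM) were higher in both ACK1 groups. The identity of the line is taken from the labels and was not checked beyond the markers given here. Of the marker lists of other cell types, none of 8 leukocyte markers passed the filter. The fibroblast list summed to 878 to 899, 697 to 708 and 910 to 970 CPM, with COL1A2 highest and DCN and LUM below the filter. The endothelial list summed to 219 to 226, 51.2 to 53.2 and 99.3 to 102 CPM, with PECAM1 and CLDN5 below the filter, and this sum was mostly CDH5. TEK of the same list went the other way, at 1.07, 5.10 and 2.65 CPM on average (4.81-fold and 2.46-fold higher in WT and IDRmut). The part of these differences in the results below was not tested, and in bulk RNA fewer cells of a kind and less RNA per cell cannot be told apart.

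Most of the endocytic genes stayed within a narrow range. Against Control, 8 of the 46 were higher and 6 were lower in WT by edgeR's quasi-likelihood test at a Benjamini-Hochberg adjusted p under 0.05, while 35.0% of all genes tested were called in this comparison, 17.4% higher and 17.6% lower. The members' share, 30.4%, was near that background. DNM1 alone changed at least 2-fold, a size that 6.36% of all genes reached. For 36 of the 46 the 95% interval of the change lay within 1.25-fold either way, against 39.2% of all genes. Interval width depends on the count level, and no share over genes of like level was taken, here or in the comparisons below. The median log2 fold change of the members was 0.03, beside 0.00 over all genes. Both WT libraries lay above both Control libraries for 20 members (34.6% of all genes) and below them for 13 (34.7% of all genes). This balance depended on the settings: 14 members were higher when the first or the second IDRmut library was left out of the shared fit, and 2 to 3 were lower when any 1 Control or WT library was left out. Upper-quartile scaling gave 16 higher and 5 lower. DESeq2 made 10 of the 14 calls, without those of CAV2, EEA1, GAK and RAB5A.

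In IDRmut more members were called lower than higher, with 4 of the 46 higher and 13 lower than Control. Of all genes, 31.6% were called in this comparison, 15.6% higher and 15.9% lower. The highest member was again DNM1, the only one past 2-fold (5.20% of all genes), and the most strongly lowered was CAV1. Both IDRmut libraries lay below both Control libraries for 22 members (31.3% of all genes) and above them for 7 (32.0% of all genes). The median log2 fold change was -0.08, beside 0.00 over all genes, and 32 members had an interval within 1.25-fold (39.0% of all genes). Leaving out the first or the second Control library left 8 and 7 members lower and 1 higher in each case, and leaving out the first or the second WT library left 2 higher. Between the 2 IDRmut libraries, members richer in GC were lower in the second: the log2 difference of the second from the first correlated with GC content at r = -0.63 over the 46 members, which share these 2 libraries, and at -0.25 over all genes with a GC value. The same measure over the members was 0.32 between the Control libraries and 0.35 between the WT libraries, of the opposite sign, and 0.07 and 0.04 over all genes. The members' log2 fold changes against Control correlated with GC content at r = 0.18 in WT and 0.15 in IDRmut, but at 0.07 and -0.02 without DNM1, so both values rested on that gene. Correction for GC content and length gave 5 higher and 12 lower, and upper-quartile scaling gave 4 higher and 9 lower. DESeq2 made 10 of the 17 calls, without those of AMPH, CBL, EEA1, EHD1, EPN1, SNX33 and WASL.

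Set directly against each other, WT and IDRmut differed in 17 of the 46 genes, 16 higher in WT and 1 lower, where 26.5% of all genes were called, 14.2% higher and 12.3% lower. None of the 46 reached 2-fold, a size met by 2.56% of all genes. Both WT libraries lay above both IDRmut libraries for 27 members (31.4% of all genes) and below them for 5 (30.1% of all genes). The median log2 difference was 0.09, beside 0.00 over all genes, and 35 intervals lay within 1.25-fold (43.4% of all genes). DESeq2 made 11 of the 17 calls, all higher in WT, without those of CLTA, DNM1, EPN1, HIP1R, ITSN2 and SNX9. The 16 came from every role group except the sorting proteins and CBL ligases. Without the second WT library, the deepest, 7 members were higher, and 4 members were lower without the first IDRmut library and 2 without the second.

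**Figure D1:**
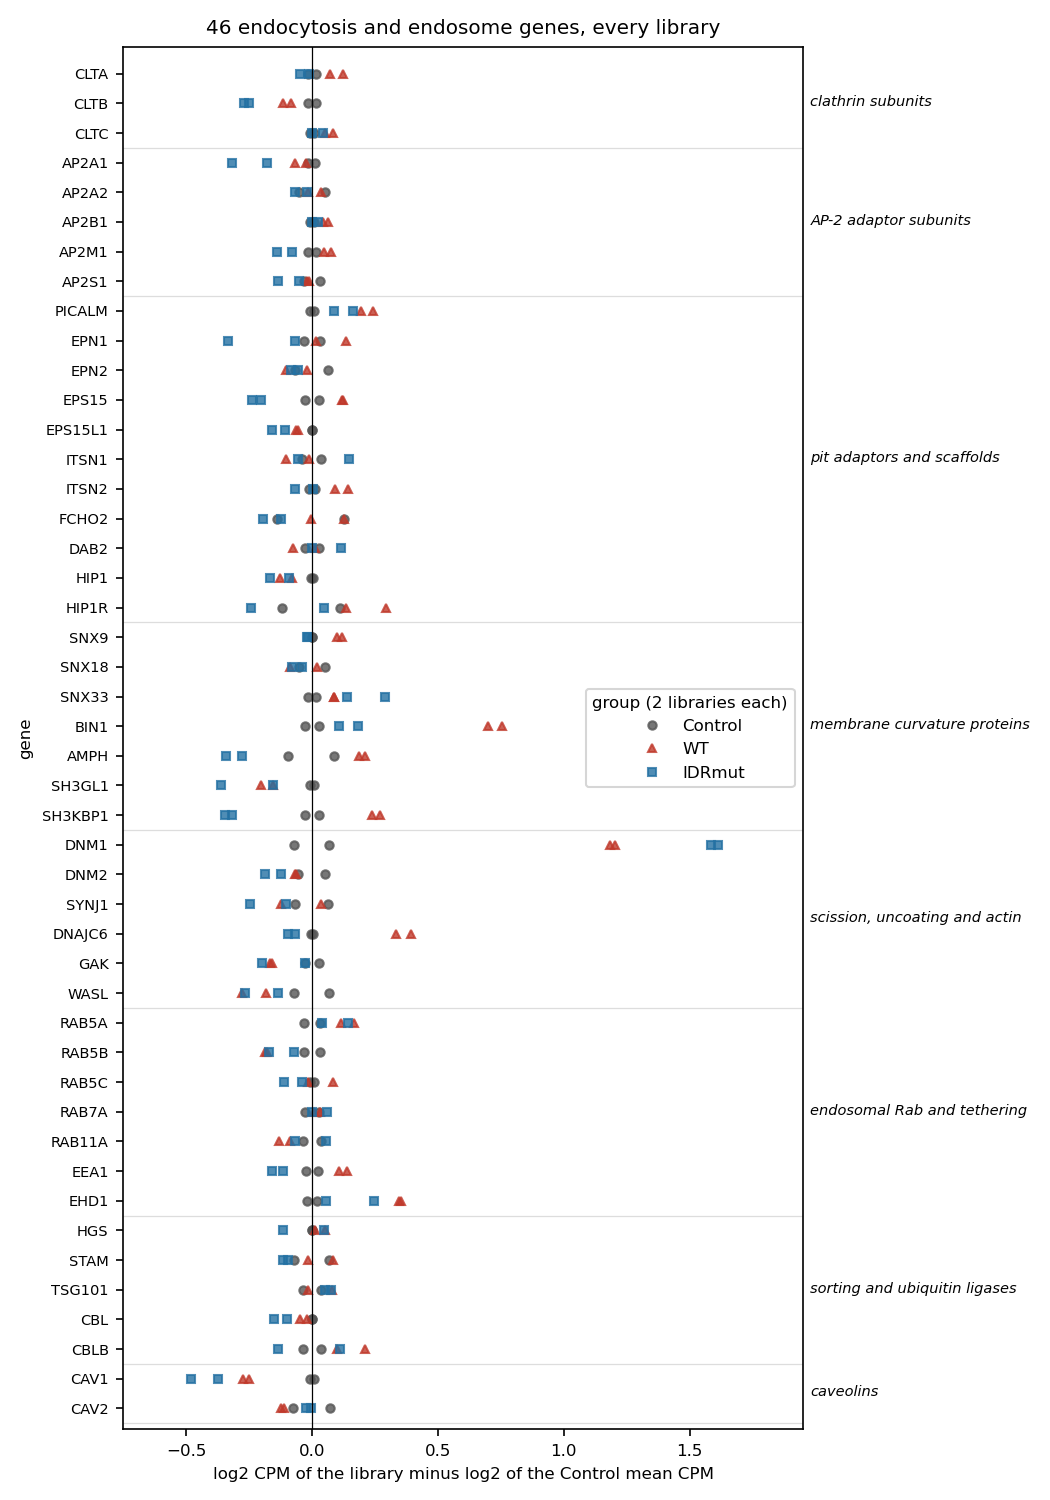
Each point is 1 library of 1 gene, as its log2 CPM minus the log2 of the Control mean CPM (horizontal axis), with the genes grouped by role (vertical axis); circles are Control, triangles WT and squares IDRmut. DNM1 lies far to the right in both ACK1 groups, BIN1 in WT only past 0.5, and CAV1 lies to the left in both.

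None of the 3 clathrin subunits was called in WT against Control by edgeR or DESeq2; at an unadjusted p under 0.05 edgeR gave 1 higher and 1 lower, and DESeq2 none. This depended on the settings. With only the 2 groups fitted, or without either IDRmut library, edgeR called all 3, CLTA and CLTC higher and CLTB lower, and it called CLTA and CLTC under upper-quartile scaling and CLTB and CLTC under the GC and length correction. The heavy chain CLTC (ENSG00000141367; chromosome 17 from 59619689 to 59696956, plus strand, GRCh38), which forms the legs of the clathrin triskelion, had 829 and 839 CPM in Control, 864 and 884 in the WT libraries and 834 and 859 in the IDRmut libraries. The WT libraries lay above both Control libraries, but the change of 0.07 ± 0.03 on the log2 scale was not called (edgeR adjusted p = 0.13), and its 95% interval ran from -0.003 to 0.14. It was called under 5 of the 14 alternatives, with an adjusted p of 0.033 under upper-quartile scaling, 0.019 with only the 2 groups, 0.043 and 0.03 without the first and the second IDRmut library, and 0.002 after correction for GC content and length, where the change was 0.11. The IDRmut libraries overlapped Control, and the log2 fold change was 0.02 ± 0.03 with an interval from -0.05 to 0.09. The GC and length correction raised it to 0.08 (adjusted p = 0.024). CLTA, the light chain a, stood at 145 and 142 CPM in Control, against 156 and 151 in the WT and 139 and 142 in the IDRmut libraries. It was higher in WT than in IDRmut by 0.12 ± 0.04 (adjusted p = 0.028), a call lost without either WT library or the first IDRmut library, where the adjusted p rose to as much as 0.26. CLTB, the light chain b, had 113 and 115 CPM in Control, 108 and 105 in WT, with 95.9 and 94.8 in IDRmut. The 3 groups did not overlap, with Control highest and IDRmut lowest. CLTB fell by 0.26 on the log2 scale in IDRmut (SE 0.04, adjusted p = 0.00015), a call that held under all 14 alternative settings. Its value in WT was -0.10 ± 0.04 (adjusted p = 0.069), and WT was higher than IDRmut by 0.16 ± 0.04 (adjusted p = 0.0087), which was lost without either WT library at an adjusted p of up to 0.10. Corrected for length, CLTA made up 51.0% and 49.9% of the 2 light chains in Control, 54.0% and 53.6% in the WT libraries and 53.9% and 54.9% in the IDRmut libraries.

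The AP-2 complex, which bridges the membrane, cargo and clathrin, had 0 of its 5 subunits called in WT, also at an unadjusted p under 0.05 and by DESeq2, and 2 lower in IDRmut. In WT, AP2M1 was called higher under 2 of the 14 alternatives, upper-quartile scaling and the fit of only the 2 groups (adjusted p from 0.037), and AP2B1 under 1, the GC and length correction (adjusted p = 0.022). AP2A1 (ENSG00000196961; chromosome 19 from 49766968 to 49807113, plus strand), 1 of the 2 large alpha subunits, had 134 and 136 CPM in Control, against 129 and 133 in the WT and 119 and 108 in the IDRmut libraries. Both IDRmut libraries lay below all 4 others, the second further than the first. AP2A1 fell by 0.25 in IDRmut (log2, SE 0.05, adjusted p = 0.00068), which held under all 14 alternatives, and WT was higher than IDRmut by 0.20 ± 0.05 (adjusted p = 0.0034, and 0.066 without the second WT library). AP2M1, the mu subunit that reads tyrosine-based sorting signals, had 658 and 672 CPM in Control, 700.2 and 688 in WT, with 629 and 604 in IDRmut. The 3 groups did not overlap, with WT highest. WT was higher than IDRmut by 0.17 ± 0.03 (adjusted p = 0.0012), under all 14 alternatives. The fall in IDRmut, by 0.11 on the log2 scale (adjusted p = 0.022), was lost under 4 of the 14 alternatives. These were upper-quartile scaling, the fit of only the 2 groups, and the omission of either Control library. The other alpha subunit AP2A2, the beta subunit AP2B1 and the sigma subunit AP2S1 were otherwise called in no comparison, with log2 fold changes against Control between -0.09 and 0.05. Summed over the complex, AP-2 transcripts came to 1396 and 1427 CPM in Control, 1456 and 1452 in the WT libraries and 1352 and 1325 in the IDRmut libraries.

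Among 11 pit adaptors and scaffolds, PICALM was the only one called against Control in WT in the main fit. This depended on the settings: HIP1R was called higher in WT under 7 of the 14 alternatives, EPS15 and ITSN2 under 6 each, and EPN1 under 1. PICALM (ENSG00000073921; chromosome 11 from 85957684 to 86069882, minus strand), a clathrin assembly protein that binds membrane lipid, had 336 and 332 CPM in Control, against 394 and 382 in the WT and 355 and 374 in the IDRmut libraries. Both ACK1 groups lay above Control in every library. The rise was 0.22 ± 0.04 on the log2 scale in WT (adjusted p = 0.0002), held under all 14 alternatives, and 0.13 ± 0.04 in IDRmut (adjusted p = 0.016), lost without either Control library or the second IDRmut library with an adjusted p of up to 0.13. WT and IDRmut were not called different (0.09 ± 0.04, adjusted p = 0.083).

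EPS15 (ENSG00000085832; chromosome 1 from 51354263 to 51519328, minus strand), a scaffold of the pit rim first found as a substrate of the epidermal growth factor receptor, had 65.5 and 62.9 CPM in Control, 69.8 and 70.1 in WT, with 54.4 and 55.9 in IDRmut. The groups were fully apart, with WT above and IDRmut below Control. WT was higher than IDRmut by 0.34 ± 0.05 (log2, adjusted p = 4.2e-05) and IDRmut was lower than Control by 0.22 on that scale (adjusted p = 0.0026), both under all 14 alternatives. The value in WT against Control was 0.12 ± 0.05 (adjusted p = 0.056). EPN1, epsin 1, which bends the membrane and binds ubiquitinated cargo, had 149 and 155 CPM in Control, 154 and 167 in the WT libraries and 145 and 121 in the IDRmut libraries. Of the IDRmut pair, the second library was well below the first, and WT overlapped Control. EPN1 was called higher in WT than in IDRmut (0.27 ± 0.06, adjusted p = 0.0036, lost without the second WT library and by DESeq2) and lower in IDRmut than in Control (-0.20 ± 0.06, adjusted p = 0.029). The latter was lost without either Control library or the second IDRmut library, with an adjusted p of up to 0.29 and a log2 fold change as small as -0.07. HIP1R, which links coats to actin, had 22.2 and 18.9 CPM in Control, against 22.6 and 25.2 in the WT and 21.3 and 17.4 in the IDRmut libraries. WT was higher than IDRmut by 0.32 ± 0.10 (adjusted p = 0.019), a call lost without the second WT or the second IDRmut library, with an adjusted p of up to 0.22. ITSN2, an intersectin scaffold, was higher in WT than in IDRmut by 0.15 ± 0.05 (adjusted p = 0.02), also lost without either WT library or the second IDRmut library. The remaining 6, EPN2, EPS15L1, ITSN1, FCHO2, DAB2 and HIP1, were called in no comparison. As a group the 11 summed to 858 and 854 CPM in Control, 927 and 928 in WT, with 849.7 and 843 in IDRmut.

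Of the 7 genes listed as membrane-curving, which include the adaptor SH3KBP1, BIN1 and SH3KBP1 rose in WT. In WT against IDRmut, 4 of the 7 were higher (3 by DESeq2), where 14.2% of all genes were higher. SNX9 (chromosome 6 from 157700387 to 157945077, plus strand), the PX-BAR sorting nexin that binds ACK1 and dynamin, had 68.2 and 68.0 CPM in Control, 72.9 and 73.9 in the WT libraries and 67.1 and 67.4 in the IDRmut libraries. The WT libraries were the highest of the 6. The differences were small: 0.11 ± 0.05 against Control (adjusted p = 0.072) and 0.13 ± 0.04 against IDRmut (adjusted p = 0.046). That call was lost under 10 of the 14 alternatives, among them the omission of any 1 of the 6 libraries, with an adjusted p of up to 0.31. In WT against Control, SNX9 was called under 6 of the 14. SNX18, its close relative, was called in no comparison. SNX33, the other relative, had 20.5 and 20.0 CPM in Control, against 21.5 and 21.5 in the WT and 24.7 and 22.3 in the IDRmut libraries. Its rise in IDRmut (0.21 ± 0.08, adjusted p = 0.043) was lost under 9 of the 14 alternatives. It was lost by DESeq2, with no filter on low counts, with only the 2 groups and with the replicate block. The omission of any 1 Control or WT library or of the first IDRmut library also lost it.

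BIN1 (ENSG00000136717; chromosome 2 from 127048027 to 127107355, minus strand) and AMPH (ENSG00000078053; chromosome 7 from 38383704 to 38631567, minus strand) encode the 2 amphiphysins, which bend membrane and recruit dynamin. BIN1 had 8.78 and 8.44 CPM in Control, 14.0 and 14.5 in WT, with 9.77 and 9.28 in IDRmut. The WT libraries stood well apart from the other 4. The rise in WT was 1.66-fold (log2 0.73 ± 0.09, adjusted p = 9.6e-06), the difference of WT from IDRmut was 1.5-fold (log2 0.59 ± 0.09, adjusted p = 0.0001), and both held under all 14 alternatives. In IDRmut the log2 fold change was 0.14 ± 0.10 (adjusted p = 0.32). AMPH had 14.6 and 16.5 CPM in Control, 18.0 and 17.7 in the WT libraries and 12.3 and 12.8 in the IDRmut libraries, with no overlap between groups. It was 1.42-fold higher in WT than in IDRmut (log2 0.50 ± 0.09, adjusted p = 0.00028, under all 14 alternatives). Against Control it was lower in IDRmut (-0.31 ± 0.09, adjusted p = 0.017), a call lost without the second Control or the first IDRmut library with an adjusted p of up to 0.19, and in WT the value was 0.20 ± 0.08 (adjusted p = 0.078).

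SH3KBP1 (ENSG00000147010; X chromosome from 19533975 to 19887601, minus strand), also called CIN85, is an adaptor that joins CBL to endophilin at activated receptors. It had 83.7 and 80.6 CPM in Control, against 96.9 and 99.1 in the WT and 64.7 and 65.8 in the IDRmut libraries. The groups were fully apart on either side of Control. It rose by 0.26 ± 0.04 in WT (log2, adjusted p = 0.00022) and fell by 0.33 in IDRmut (SE 0.05, adjusted p = 3.6e-05). The 1.5-fold difference between the ACK1 groups (log2 0.59 ± 0.04, adjusted p = 4.2e-08) had the smallest adjusted p of the members in that comparison, and all 3 calls held under all 14 alternatives. SH3GL1, endophilin A2, which binds dynamin and synaptojanin, had 133 and 131 CPM in Control, 115 and 119 in WT, with 119 and 103 in IDRmut. It was lower in both ACK1 groups, by 0.26 in IDRmut (adjusted p = 0.0015, under all 14 alternatives) and by 0.18 in WT (adjusted p = 0.016), the latter lost without either Control library or the first WT library at an adjusted p of up to 0.11. The ACK1 groups overlapped.

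Scission and uncoating held the largest change. DNM1 (ENSG00000106976; chromosome 9 from 128191655 to 128255248, plus strand), the dynamin best known from synapses, had only 81 and 84 counts in Control, against 203 and 335 in the WT and 264 and 290 in the IDRmut libraries. In CPM these were 4.11 and 4.52, 9.94 and 9.80, and 13.0 and 13.2. The 3 groups were fully apart and rose from Control to WT to IDRmut. The change was 2.29-fold in WT (log2 1.19 ± 0.12, adjusted p = 3.7e-07) and 3.03-fold in IDRmut (log2 1.60 ± 0.11, adjusted p = 1.1e-08), each under all 14 alternatives. DNM1 was the only member lower in WT than in IDRmut, at 0.75-fold (log2 -0.41 ± 0.09, adjusted p = 0.0029), a call that DESeq2 did not make (adjusted p = 0.079). DNM2, the dynamin that most tissues express, had 193 and 208 CPM in Control, 192 and 192 in the WT libraries and 185 and 177 in the IDRmut libraries. It was lower in IDRmut (-0.15 ± 0.04, adjusted p = 0.011, lost without the second Control library at 0.19) and was not called in WT (-0.07 ± 0.04). Corrected for length, DNM1 made up 2.58% and 2.63% of the dynamin 1 and 2 transcripts in Control, against 6.07% and 5.99% in the WT and 8.05% and 8.53% in the IDRmut libraries, so DNM2 remained the main dynamin transcript in every library. Of 7 markers of neurons, 3 were higher and 1 lower in WT (2 and 0 by DESeq2, and 17.4% and 17.6% of all genes by edgeR), and 1 was higher and none lower in IDRmut (15.6% and 15.9%; none lower by DESeq2 or at an unadjusted p under 0.05). The higher ones in WT were SYT1 (1.68-fold), TUBB3 (1.81-fold) and SNAP25 (4.21-fold, from 0.13 CPM in Control), the lower one was STMN2, and TUBB3 was the one higher in IDRmut (1.86-fold). Their summed levels were 74.9 to 83.0 CPM in Control, 88.1 to 88.9 in WT and 81.0 to 83.5 in IDRmut, of which MAP2, called in neither, made up most. The part of these transcripts in the change of DNM1 was not tested.

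Auxilins recruit the chaperone that strips clathrin from vesicles. DNAJC6 (ENSG00000116675; chromosome 1 from 65248219 to 65415869, plus strand), the auxilin best known from neurons, had 32.6 and 32.5 CPM in Control, 42.8 and 41.0 in WT, with 30.5 and 31.0 in IDRmut. WT alone was high. The rise in WT was 1.28-fold (log2 0.36 ± 0.06, adjusted p = 0.0001) and the difference from IDRmut 1.36-fold (log2 0.44 ± 0.06, adjusted p = 1.9e-05), both under all 14 alternatives. GAK, the auxilin found in most tissues, was lower in WT (-0.16 ± 0.05, adjusted p = 0.017), a call lost without the second Control library or either WT library with an adjusted p of up to 0.15. Per kilobase of merged exons, DNAJC6 made up 35.5% and 34.5% of the 2 auxilins in Control. The shares were 44.1% and 43.2% in the WT libraries and 34.0% and 37.0% in the IDRmut libraries. They rest on the length used, since the merged exons of GAK (15155 bases) far exceed its longest transcript (4442 bases). For DNAJC6 these lengths were 6954 and 5916 bases, so by longest transcript its share would be smaller. Without length correction GAK had 132 CPM on average in Control, beside 32.55 for DNAJC6. SYNJ1, the lipid phosphatase synaptojanin 1 that also serves uncoating, was called in no comparison. WASL, the N-WASP protein that starts actin branching at pits and is a known binding partner of SNX9, had 76.9 and 69.7 CPM in Control, against 64.7 and 60.5 in the WT and 61.0 and 66.7 in the IDRmut libraries. It was lower in WT (-0.23 ± 0.06, adjusted p = 0.0048) and in IDRmut (-0.20 ± 0.06, adjusted p = 0.018). The call in WT was lost without the first Control or the second WT library (up to 0.12), and that in IDRmut without the first Control or the first IDRmut library (up to 0.25).

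**Figure D2:**
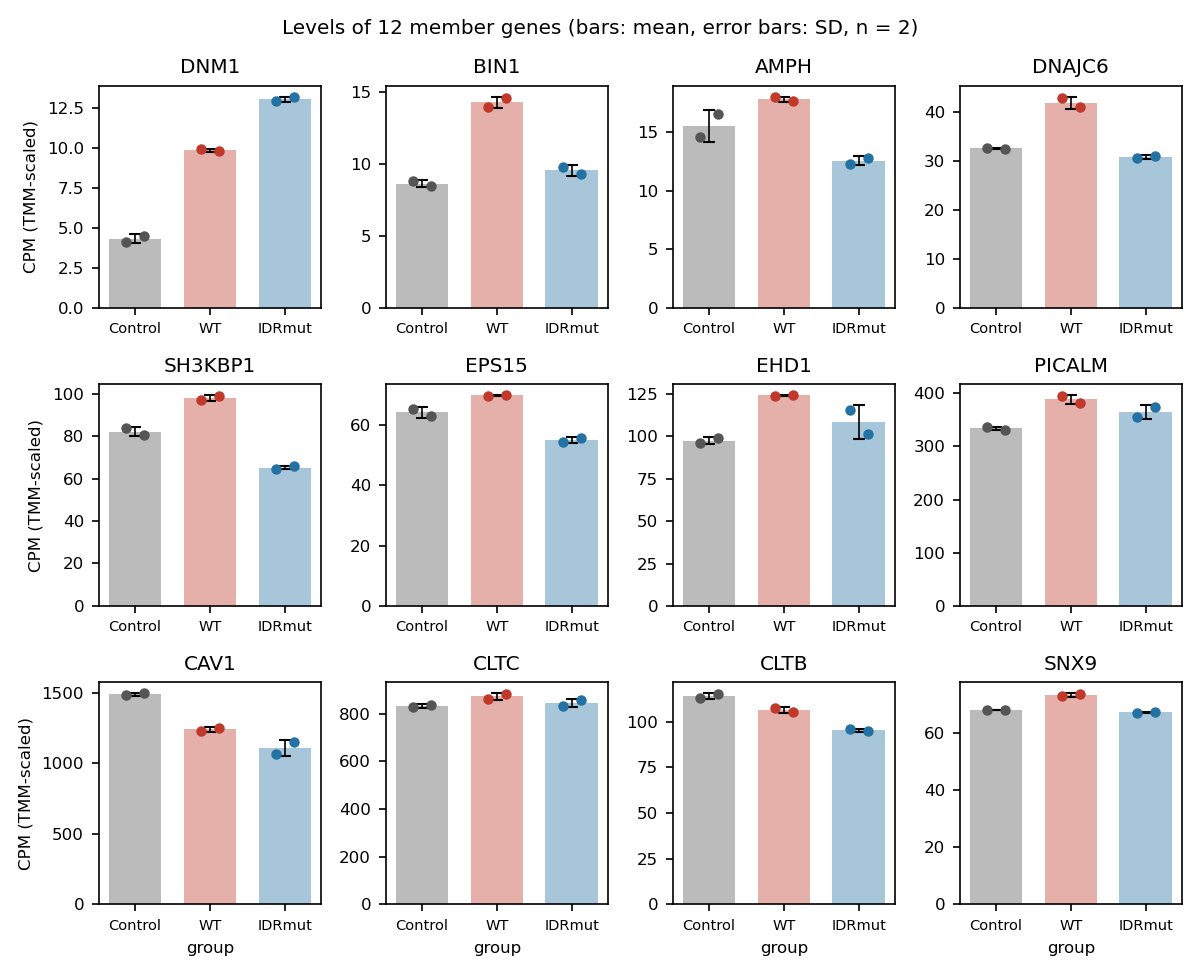
Bars give the mean CPM of 12 member genes in Control, WT and IDRmut, error bars the SD (n = 2), and points the single libraries; each panel has its own axis from 0. DNM1 is high in both ACK1 groups, BIN1 and DNAJC6 in WT only, AMPH, SH3KBP1 and EPS15 are lowest in IDRmut, and CLTC and SNX9 differ little.

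The start sites of 5 of these genes are shown because they hold the contrasts described: the 2 dynamins, of which 1 rose and 1 did not, DNAJC6 among the genes higher in WT, and EPS15 and CLTB among those lower in IDRmut. The sequences are from RefSeq (GRCh38.p14), written 5′ to 3′ on the strand of the gene, and are the exon-free stretch of the 250 bases before the RefSeq start. They lie at chr9:128203129-128203351 (plus) for DNM1, chr19:10717829-10718078 (plus) for DNM2, chr1:65309293-65309542 (plus) for DNAJC6, chr1:51519329-51519516 (minus) for EPS15 and chr5:176416570-176416819 (minus) for CLTB. Capitals mark matches, on either strand and with overlaps allowed, to 7 motifs: the GC box GGGCGG, the CCAAT box CCAAT, the STAT site TTCNNNGAA, the interferon-stimulated response element (a repeat of GAAA after 2 free bases), the AP-1 site TGANTCA, the E-box CACGTG and the TEAD site GGAATG.
DNM1: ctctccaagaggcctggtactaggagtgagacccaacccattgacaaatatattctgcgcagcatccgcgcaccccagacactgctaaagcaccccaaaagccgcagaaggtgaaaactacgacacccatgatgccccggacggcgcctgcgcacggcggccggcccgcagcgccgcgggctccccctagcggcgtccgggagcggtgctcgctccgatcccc
DNM2: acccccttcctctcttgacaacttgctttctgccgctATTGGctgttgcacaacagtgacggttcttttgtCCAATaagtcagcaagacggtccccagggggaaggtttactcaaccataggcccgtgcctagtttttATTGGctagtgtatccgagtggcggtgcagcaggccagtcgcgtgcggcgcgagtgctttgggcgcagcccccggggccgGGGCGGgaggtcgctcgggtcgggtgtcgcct
DNAJC6: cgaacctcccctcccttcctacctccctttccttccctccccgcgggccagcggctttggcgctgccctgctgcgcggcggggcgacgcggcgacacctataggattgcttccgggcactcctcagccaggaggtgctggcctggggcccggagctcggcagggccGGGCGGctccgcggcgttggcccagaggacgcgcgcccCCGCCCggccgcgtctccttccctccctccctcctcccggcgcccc
EPS15: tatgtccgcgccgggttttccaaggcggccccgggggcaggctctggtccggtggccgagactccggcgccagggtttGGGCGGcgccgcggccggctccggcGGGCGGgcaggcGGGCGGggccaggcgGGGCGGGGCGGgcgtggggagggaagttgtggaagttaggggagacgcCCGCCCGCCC
CLTB: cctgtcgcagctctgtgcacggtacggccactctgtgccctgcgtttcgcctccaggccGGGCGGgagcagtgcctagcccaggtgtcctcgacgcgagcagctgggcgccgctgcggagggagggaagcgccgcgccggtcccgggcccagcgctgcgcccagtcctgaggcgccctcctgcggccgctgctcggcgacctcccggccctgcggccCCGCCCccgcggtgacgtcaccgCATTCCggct
The exon-free stretch of DNM1 held none of the 7 motifs, although its full window of 250 bases held 1 GC box, and that of DNM2 held 3 CCAAT boxes and 1 GC box. The stretch of EPS15 held 7 GC boxes, that of DNAJC6 held 2, and that of CLTB held 2 with 1 TEAD match. RefSeq gives further start sites for EPS15, DNAJC6 and CLTB. The other full window of EPS15 held 1 CCAAT box and no GC box, that of DNAJC6 held 1 TEAD match and no GC box, and of the 2 others of CLTB 1 overlapped the window shown and 1 held no motif. The shares that follow are over full windows, exon bases included. GC boxes were common in general: 42.5% of all 34943 promoter windows of 250 bases held one, as did 49 of the 69 windows of the members (71.0%), whose median GC content was 68.4%, beside 58.0% over all windows. A STAT site was in 6.6% of all windows and in none of the members' 69, a CCAAT box in 32.0% and in 20 of the 69, an interferon-stimulated element in 3.0% of all windows and 2.9% of the members', an AP-1 site in 6.6% and 2.9%, an E-box in 6.3% and 4.3%, and a TEAD site in 11.9% and 11.6%. These are matches of letters only. Windows were found for 45 of the 46 members, CBL being the exception.

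On the endosome, EHD1 and EEA1 stood out among 7 genes. EHD1 (ENSG00000110047; chromosome 11 from 64851642 to 64888296, minus strand), an ATPase that drives recycling from endosomes, had 96.1 and 98.9 CPM in Control, 124 and 125 in WT, with 116 and 101 in IDRmut. The WT libraries were the highest, and the IDRmut libraries lay between and differed from each other. It rose 1.27-fold in WT (log2 0.35 ± 0.05, adjusted p = 5.6e-05, under all 14 alternatives). The rise in IDRmut (0.15 ± 0.05, adjusted p = 0.04) was lost without either Control library, either WT library or the first IDRmut library, with an adjusted p of up to 0.40 and a log2 fold change of 0.05 without the first IDRmut library. WT was higher than IDRmut by 0.20 ± 0.05 (adjusted p = 0.0091), lost without the second WT or the second IDRmut library at up to 0.08.

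EEA1 (chromosome 12 from 92770637 to 92929331, minus strand), the tether that RAB5 recruits for endosome fusion, had 79.6 and 77.1 CPM in Control, 86.3 and 84.3 in the WT libraries and 72.4 and 70.1 in the IDRmut libraries. The groups were apart on either side of Control. WT was higher than IDRmut by 0.26 ± 0.05 (log2, adjusted p = 0.00038) under all 14 alternatives. Its calls against Control were marginal, at 0.12 ± 0.05 in WT (adjusted p = 0.049) and -0.14 ± 0.05 in IDRmut (adjusted p = 0.034). The former was lost without any 1 Control or WT library (up to 0.28) and the latter without any 1 Control or WT library or the second IDRmut library (up to 0.21). Of the exon bases of EEA1, 17.9% overlapped another gene, and its reads may include those of that gene. The same limit holds for RAB5C (30.4%), HGS (23.5%), EPN2 (21%) and SNX33 (10%), of which SNX33 was called in IDRmut.

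RAB5A, 1 of the 3 RAB5 GTPases that define the early endosome, was higher in WT (91.0 and 86.9 CPM in Control, 99.9 and 96.4 in WT, 91.5 and 98.1 in IDRmut). The rise of 0.14 ± 0.05 (adjusted p = 0.031) was lost without any 1 Control or WT library (up to 0.25). RAB5B went the other way, with 83.8 and 87.7 CPM in Control, against 75.7 and 75.4 in the WT and 76.1 and 81.7 in the IDRmut libraries. It fell by 0.18 in WT (SE 0.05, adjusted p = 0.0072), lost without the second Control or the second WT library (up to 0.099). RAB5A made up 65.4% and 63.3% of the RAB5A and RAB5B transcripts per length in Control, 69.7% and 69.0% in WT, with 67.7% and 67.7% in IDRmut. RAB5C, RAB7A of late endosomes and RAB11A of recycling endosomes were called in no comparison. RAB5C is uncertain, since 31.7% of the 100-base stretches of its longest transcript occur in transcripts of another annotated gene.

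Of 5 sorting proteins and ligases, 1 was called, CBL in IDRmut against Control (0 of 5 by DESeq2, and 1 at its unadjusted p under 0.05). HGS and STAM, which form the complex that holds ubiquitinated receptors on endosomes, TSG101 of the next complex, and the ligase CBLB were called in no comparison, with log2 fold changes between -0.10 and 0.15. CBL, the ligase that marks activated receptor tyrosine kinases for the lysosome, was lower in IDRmut (143 and 143 CPM in Control, 141 and 138 in WT, 134 and 129 in IDRmut; log2 -0.12 ± 0.04, adjusted p = 0.027). That call was lost without any 1 Control or WT library or the second IDRmut library, and after correction for GC content and length, with an adjusted p of up to 0.18.

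Caveolins coat a separate kind of pit that forms without clathrin, and CAV1 had the highest length-corrected level of the 46 in Control, 364 CPM per kilobase of exon beside 140 for AP2M1 and 70.4 for CLTC. CAV1 (ENSG00000105974; chromosome 7 from 116524785 to 116561184, plus strand) had 1480 and 1494 CPM in Control, 1228 and 1249 in the WT libraries and 1066 and 1148 in the IDRmut libraries. The groups did not overlap, with Control highest and IDRmut lowest. It fell by 0.26 in WT (log2, SE 0.04, adjusted p = 2.2e-05) and by 0.43 in IDRmut (SE 0.04, adjusted p = 1.1e-07), both under all 14 alternatives, and WT was higher than IDRmut by 0.16 ± 0.04 (adjusted p = 0.003, and 0.052 without the second WT library). CAV2, its partner in caveolar coats, had 298 and 269 CPM in Control, against 260 and 263 in the WT and 279 and 283 in the IDRmut libraries. Its fall in WT (-0.12 ± 0.04, adjusted p = 0.045) was lost without the first Control library or either WT library, where the adjusted p rose to as much as 0.57. The sums over genes turned on CAV1: all 46 members came to 7025 and 7052 CPM in Control, 6933 and 6955 in WT, with 6453 and 6504 in IDRmut, and without CAV1 to 5545 and 5558, 5704 and 5706, and 5387 and 5356. With CAV1 the sums were highest in Control, without it in WT, and IDRmut was lowest either way.

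Considered by pattern over the 3 comparisons, 19 of the 46 genes (41.3%) were called in none, beside 49.2% of all genes. DNM1, PICALM and EHD1 were higher in both ACK1 groups (6.52% of members, 9.20% of all genes), and CAV1, SH3GL1 and WASL were lower in both (6.52% and 9.38%). SH3KBP1 and EEA1 were called in opposite directions against Control (4.35% of members), as were 1.26% of all genes, and were higher in WT, lower in IDRmut and called between the ACK1 groups, as were 0.609% of all genes. AP2A1, AP2M1, CLTB, EPN1, EPS15 and AMPH were lower in IDRmut, not called in WT, and higher in WT than in IDRmut, a pattern of 13.0% of the members and 3.59% of all genes. The lack of a call in WT depended on the settings. EPS15 was called higher in WT under 6 of the 14 alternatives, AP2M1 and AMPH under 2 each and EPN1 under 1. CLTB was called lower in WT under 4 of them, and AP2A1 under 0. BIN1 and DNAJC6 were higher in WT, not called in IDRmut, and higher in WT than in IDRmut (4.35% and 4.22%). The comparisons against Control share the Control libraries. The calls that held under all 14 alternatives were BIN1, CAV1, DNAJC6, DNM1, EHD1, PICALM and SH3KBP1 in WT (7 of 14 calls), AP2A1, CAV1, CLTB, DNM1, EPS15, SH3GL1 and SH3KBP1 in IDRmut (7 of 17), and AMPH, AP2M1, BIN1, DNAJC6, EEA1, EPS15 and SH3KBP1 between the ACK1 groups (7 of 17).

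**Figure D3:**
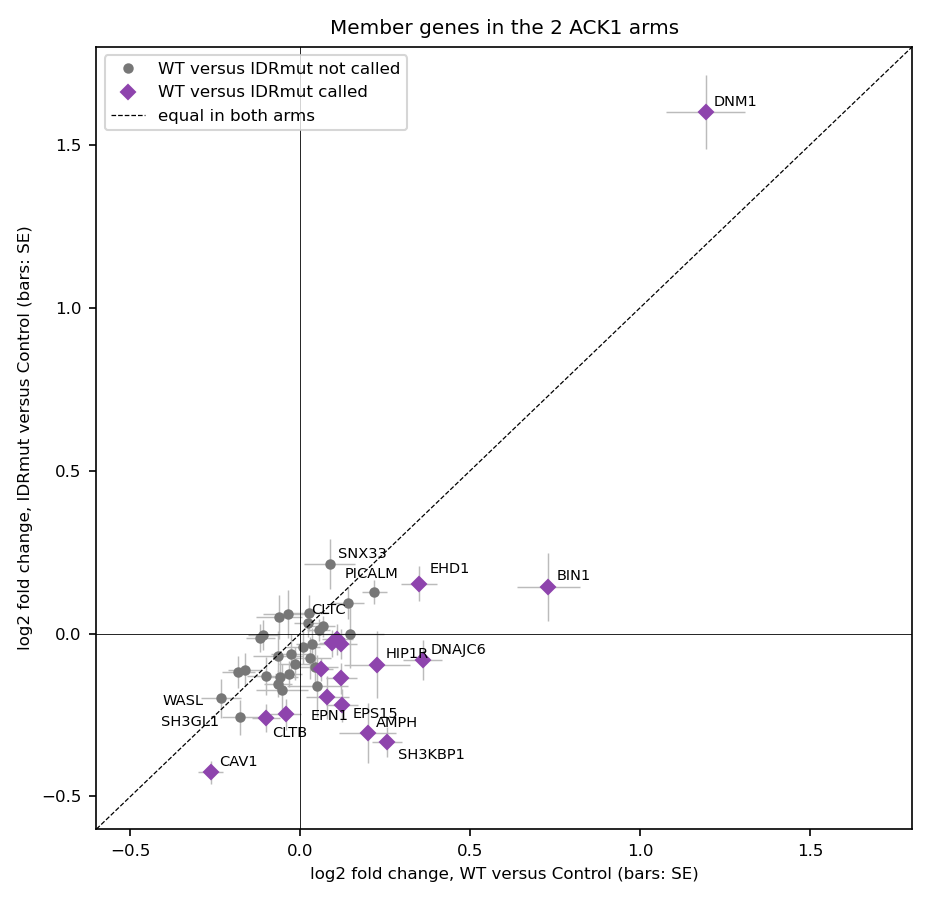
Each point is a member gene, with its log2 fold change in WT against Control on the horizontal axis and in IDRmut against Control on the vertical axis, and bars of 1 SE; diamonds are genes called between WT and IDRmut, and the dashed line marks equal change. DNM1 is the only diamond above the line, at 1.19 and 1.60, and the other 16 lie below it.

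Other genes of the route, from lists that hold none of the 46, are given for context. Of all genes tested, 17.4% were higher and 17.6% lower in WT, and 15.6% and 15.9% in IDRmut. In WT against IDRmut the shares were 14.2% higher and 12.3% lower. Of 19 further coat and pit genes tested, 3 were higher and 1 lower in WT, 2 higher and 1 lower in IDRmut, and 5 higher and 1 lower in WT against IDRmut. STON2, an AP-2 cargo adaptor, had 18.0 and 20.0 CPM in Control, 31.7 and 30.9 in the WT libraries and 25.6 and 26.5 in the IDRmut libraries, a rise of 0.72 ± 0.07 (log2, adjusted p = 4.3e-07) and 0.46 ± 0.07 (adjusted p = 0.00015). ARRB1, the beta-arrestin that brings G-protein-coupled receptors to pits, rose by 1.10 ± 0.16 in WT and 1.09 ± 0.16 in IDRmut (adjusted p = 3.1e-05 and 6.1e-05). Against IDRmut, WT was higher for 10 of 25 further membrane-bending, scission and uncoating genes (4 by DESeq2) and lower for 1. TRIP10, an F-BAR protein, was higher in WT than in Control and in IDRmut (0.50 ± 0.06 and 0.54 ± 0.05, adjusted p = 1.9e-06 and 1.1e-06). The lower one was SH3GL3, endophilin A3, with 17.1 and 17.1 CPM in Control, against 6.61 and 6.73 in the WT and 10.2 and 10.2 in the IDRmut libraries. SYNJ2, the sister of SYNJ1, fell by 0.50 in WT and 0.60 in IDRmut (adjusted p = 1.2e-08 and 2.8e-09).

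Of 25 further early endosome genes, 8 were lower and 1 higher in WT, and 7 were lower and none higher in IDRmut by edgeR (none higher by DESeq2 or at an unadjusted p under 0.05 either). Over all genes the shares were 17.6% lower and 17.4% higher in WT, and 15.9% and 15.6% in IDRmut. RIN2, an exchange factor for RAB5, had 63.6 and 66.1 CPM in Control, 35.7 and 38.5 in WT, with 41.7 and 40.5 in IDRmut, a fall of 0.80 and 0.66 on the log2 scale (adjusted p = 4.8e-09 and 1e-07). RIN3, of the same family, was the 1 that rose in WT, by 0.58 ± 0.09 (adjusted p = 6.5e-05). Of 10 caveola and clathrin-independent genes, 6 were lower in each ACK1 group, beside 17.6% and 15.9% of all genes. One, FLOT1 (flotillin 1), was higher in WT (0.29 ± 0.04, adjusted p = 3.9e-05), and none was higher in IDRmut, by edgeR, by DESeq2 or at an unadjusted p under 0.05. CAVIN2, a caveolar coat protein, had 171 and 160 CPM in Control, 95.4 and 98.4 in the WT libraries and 131 and 126 in the IDRmut libraries, a fall of 0.77 and 0.37 (adjusted p = 4.3e-10 and 5.6e-06).

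Further along the route, 24 recycling and retromer genes had 4 higher and 6 lower in WT and 3 higher and 6 lower in IDRmut. For each list of this paragraph, the shares over all genes were 17.4% higher and 17.6% lower in WT, and 15.6% and 15.9% in IDRmut. EHD3, a relative of EHD1, had 2 counts over the Control libraries, 105 in WT and 78 in IDRmut. Scaled for depth these are ratios of 36.8 (95% counting interval 9.95 to 308) and 35.3 (9.44 to 296). The 29 ESCRT genes had 5 higher and 6 lower in WT and 6 higher and 4 lower in IDRmut, and the 22 late endosome and fusion genes 6 higher and 3 lower in WT and 1 higher and 2 lower in IDRmut. Of 10 receptor ubiquitination genes, 3 were higher and 2 lower in WT and 2 higher and 3 lower in IDRmut.

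The 16 cargo receptors had 2 higher and 5 lower in WT, where 17.4% and 17.6% of all genes were. In IDRmut they had 3 higher and 8 lower, beside 15.6% and 15.9% of all genes. EGFR, a receptor that enters through coated pits, had 137 and 139 CPM in Control, against 160 and 164 in the WT and 129 and 124 in the IDRmut libraries. EGFR was higher in WT (0.23 ± 0.04, adjusted p = 0.00019) and lower in IDRmut (-0.13 ± 0.04, adjusted p = 0.023), the directions of SH3KBP1. Whether calls of the genes in these further lists held under the alternative settings is not given here. The difference between the ACK1 groups was 0.36 ± 0.04 (adjusted p = 2.9e-06). LRP1 fell by 0.86 in WT and 0.12 in IDRmut (adjusted p = 9.3e-11 and 0.047), and VLDLR rose by 1.41 ± 0.09 and 1.72 ± 0.09 (adjusted p = 1.9e-09 and 2.6e-10).

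**Figure D4:**
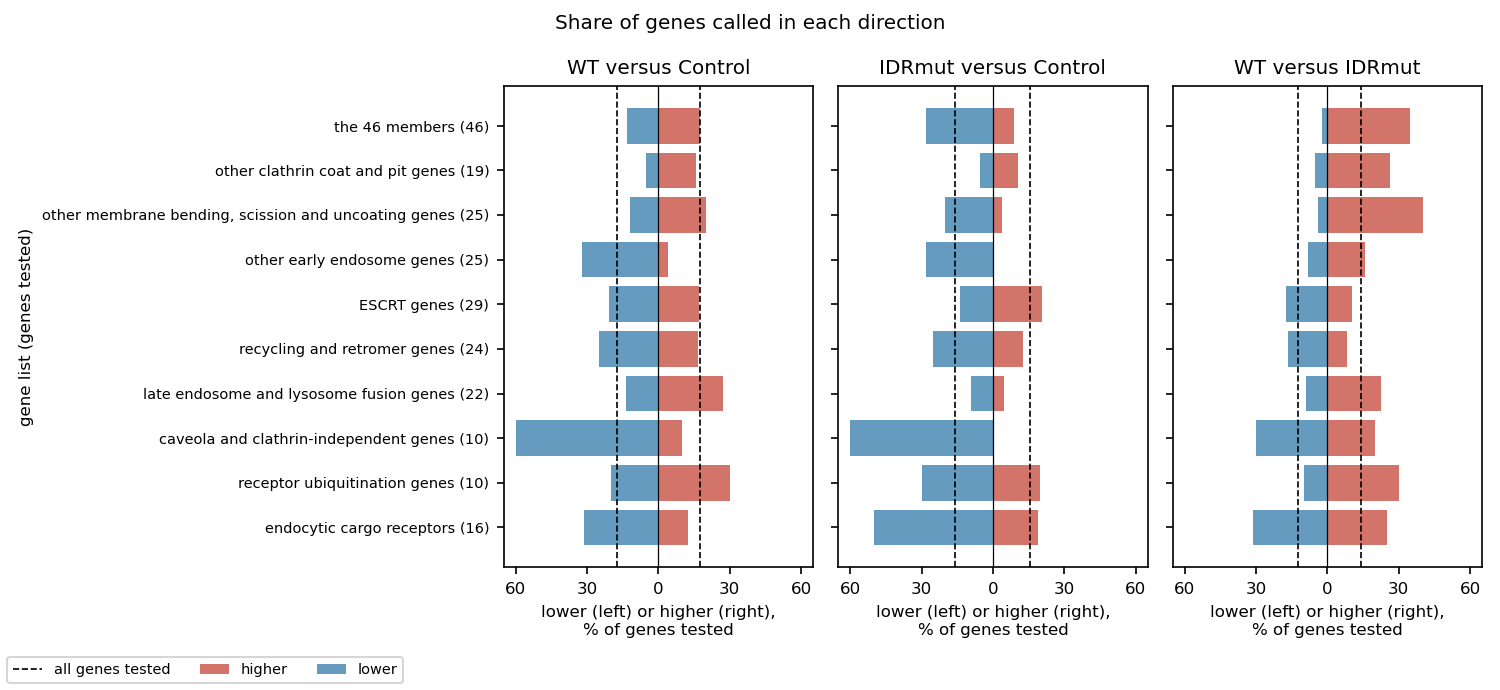
Bars show the percent of genes tested in each list that were called lower (left) or higher (right) in WT against Control, IDRmut against Control and WT against IDRmut; dashed lines mark the percent over all genes tested, and the number tested is in brackets. The 46 members extend past the line to the left in IDRmut against Control (line at 15.9%) and to the right in WT against IDRmut (line at 14.2%), and lie near or within both lines in WT against Control.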

How the data were processed

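Raw gene-level counts of 6 polyadenylated RNA libraries were deposited by the authors without normalization. HISAT2 2.2.1, SAMtools 1.14, featureCounts 2.0.1 and the build GRCh38 are named in the submitters' processing notes. Not given in the sources used here are the annotation, the strand mode and the handling of multiply matching reads, so reads of overlapping genes could not be separated.

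Current gene names matched 61369 of 61487 IDs, and GENCODE 29 names 105 more. Its coordinates and exon lengths (all exons merged) were used. Genes were kept by filterByExpr (minimum count 10, minimum total 15), which left 16591. With edgeR 4.0.16 in R 4.3.3, all 6 libraries entered 1 TMM-scaled fit of group means, tested with its quasi-likelihood F-test and adjusted by Benjamini-Hochberg over the 16591 genes. The square root of the first dispersion value held by the quasi-likelihood fit was 0.0279. Errors are SE for log2 fold changes and SD (n = 2) for levels, and counting intervals cover counting error only. Alternatives were 14: scalings, DESeq2 1.42.0, filters, the 2 groups alone, a replicate block, each of 6 libraries left out, and a GC and length correction added after seeing the data. Losses named for single members are mostly those with a library left out, and some of these calls were also lost under other settings.

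Per-library values are given for clathrin subunits, SNX9, the 10 largest called changes per comparison, and members differing by at least 0.3 (log2) between WT and IDRmut; other members' values were added after they were seen. Up to 4 genes per further list with the smallest adjusted p could be named. The members and lists were chosen with earlier results of these data known. In simulated WT and Control counts over 16591 genes, 21 of 50 genes changed 1.2-fold, 35 of 50 changed 1.5-fold, 44 of 50 changed 2-fold and 50 of 50 changed 4-fold were called, with 7 unchanged genes.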

Additional observations from a re-analysis of the deposited data

Results flagged for a closer look

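Among the 46 genes, 2 moved in opposite directions in the ACK1 groups, each called against Control in both, with the difference between the groups called as well. Of all 16591 genes, 1.26% showed such opposite calls. SH3KBP1 was higher than Control in WT (log2 0.26 ± 0.04) and lower in IDRmut (-0.33 ± 0.05), and WT exceeded IDRmut by 0.5882 on the log2 scale (edgeR adjusted p = 4.2e-08, higher in both WT libraries than in both IDRmut libraries). EEA1 was higher in WT (0.12 ± 0.05) and lower in IDRmut (-0.14 ± 0.05), and WT exceeded IDRmut by 0.2584 (adjusted p = 0.00038, again in both libraries). For EEA1 the difference between the ACK1 groups held under all 14 alternatives, whereas its calls against Control were lost under 7 and 10 of them.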

How the results depend on the processing

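Each group had 2 libraries, so a call rests on few degrees of freedom. The simulated test found 21 of 50 changes of 1.2-fold, in genes drawn at random from all those tested. Only 50 genes were changed there at each fold, whereas 5807 genes were called in the data for WT against Control. The adjusted p depends on how many genes change, so the share of 21 of 50 need not hold for the actual comparisons. The share found in the actual comparisons was not tested. Nor need 21 of 50 hold for the members, whose median SE was about 0.05 in each comparison. Most member changes were smaller than 1.2-fold, and an uncalled member is not shown to be unchanged. DESeq2 called fewer genes overall: 3649 in WT against Control (5807 with edgeR), 3290 in IDRmut against Control (5237) and 2435 between the ACK1 groups (4396). Among members it gave 11 higher in WT against IDRmut (16 with edgeR), 2 higher and 8 lower in IDRmut against Control (4 and 13), and none lower in WT against IDRmut, where edgeR gave 1, DNM1 (DESeq2 adjusted p = 0.079; 1 at an unadjusted p under 0.05). Members higher in WT against Control numbered 8, but 16 with upper-quartile scaling or with only the 2 groups fitted and 15 with the GC and length correction, which also gave 3 lower in WT against IDRmut. Members higher in IDRmut against Control numbered 2 with only the 2 groups. With each library left out in turn, all genes called ranged from 3974 to 7028 in WT against Control, 3451 to 5522 in IDRmut against Control and 2590 to 4761 in WT against IDRmut. Members higher ranged from 6 to 14, 1 to 3 and 7 to 18 in these comparisons, and members lower from 2 to 8, 7 to 14 and 1 to 4. Over the 14 alternatives the sign changed for 11, 14 and 10 of the 46 members in WT against Control, IDRmut against Control and WT against IDRmut, and for 0 of those called. Of the clathrin subunits and SNX9 in IDRmut against Control, CLTA was 0.0011 and SNX9 0.014 under upper-quartile scaling, and CLTC was -0.00085 without the second IDRmut library (up to 0.041 without the first). The cause was not tested in any of these. Between groups, the deviations of the first library from its group mean correlated over genes at -0.02, -0.02 and -0.03. These values cannot show whether libraries with the same replicate number were handled together, which the labels do not say. With the replicate block, 2 members were higher in IDRmut against Control, and all genes called numbered 5440, 4836 and 3966.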
